A study of Arabidopsis thaliana with 21 samples.

Results

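Cytochrome P450 genes were followed in the aerial parts of Arabidopsis thaliana by taking every probe set that the array annotation assigned to a single gene with a symbol of CYP followed by a digit. This gave 26 of the 22746 probe sets on the array, control probe sets left out. The symbol alone did not make a P450. The reference gene table names 24 of the 26 as P450 genes and the other 2, CYP71 and CYP59, as cyclophilins, which are prolyl isomerases that share the abbreviation, so these were kept apart. Of the 24 P450 genes 19 belonged to the subfamily CYP71B, and CYP51G, CYP718, CYP78A, CYP79A and CYP84A had 1 gene each. The 26 probe sets are a small share of the family, since the reference gene table lists 237 P450 genes under such symbols and 36 of CYP71B alone.

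RNA from the aerial parts (rosettes) of soil-grown plants aged 21 days was hybridised to 21 single-channel Affymetrix arrays, 3 for each of 7 genotypes in the Col-0 background. The combinations were aba2/GA20OX1-OE and the double mutant aba2/ga20ox1. The single lines were the mutant aba2, ABA2-OE and GA20OX1-OE, which overexpress the gene in their name, and the mutant ga20ox1, beside the wild type Col-0. The product of ABA2 works in the pathway that makes the hormone abscisic acid (ABA), and that of GA20OX1 in the pathway to active gibberellins (GA). The study was set up, by its title, around how the 2 hormones interact in leaf development. No signal of either engineered gene was examined here, so the genotypes rest on the labels. Which promoters and alleles were used, how many independent lines there were, and whether plants were pooled or grown separately for each array, none of the labels say. The p-values therefore measure the spread between these arrays, which may be technical.

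P450 enzymes are heme proteins that usually insert an oxygen atom into a substrate with electrons supplied by an NADPH-dependent reductase. In plants they act in hormone synthesis and breakdown, in the making of lignin, sterols, cutin and carotenoids, and in defence compounds. Their names give a family number, a subfamily letter and a gene number. The CYP71 family is large in plants, and CYP71B includes CYP71B15 (PAD3), which makes the indole defence compound camalexin. The hydroxylases that inactivate ABA (CYP707A) and the oxidases of early GA synthesis (CYP701A, CYP88A) were not analysed here, as no probe set was assigned to them by symbol. Of 15 lists of P450 pathways and redox partners, 2 had any member with a probe set. These members were CYP71B6 and CYP79A2 for camalexin and related indole or aldoxime metabolism and CYP78A9 for organ growth.

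Values are MAS5 signals in log2 and differences of log2 signals. A probe set was tested if its mean log2 signal over all arrays was above a low-signal bound of 5.257 (a signal of 38.2). It was called if the adjusted p of limma, over all 15923 tested probe sets, was under 0.05. The tested probe sets were 15 of the 26, made up of 11 of 19 CYP71B genes, CYP78A9, CYP84A4 and both cyclophilins. Array medians ran from 130 to 188, the highest in aba2/GA20OX1-OE replicate 3, and arrays of a genotype correlated at 0.958 to 0.983. On the first principal component Col-0 replicate 3 lay at 10.15, away from Col-0 replicates 1 and 2 (-27.60 and -24.02). Other genotypes were spread along it too, such as ga20ox1 (-32.19, -9.99 and 22.90) and aba2/GA20OX1-OE (25.07, 13.64 and 54.85). The rubisco activase gene RCA, the single measured gene of 15 rosette leaf markers, had a mean log2 signal of 14.74 over all arrays.

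The clearest signal of the P450 genes came from CYP71B22 (AT3G26200), a gene of the subfamily with no role stated in the sources used here. Its log2 signal was 10.22, 10.54 and 10.63 in aba2, against 8.55, 8.53 and 8.78 in Col-0. In the ga20ox1 background it was 10.56, 10.45 and 10.25 in aba2/ga20ox1, against 8.41, 8.98 and 8.82 in ga20ox1. In the GA20OX1-OE background it was 10.18, 8.85 and 9.96 in aba2/GA20OX1-OE, against 8.13, 8.09 and 8.39 in GA20OX1-OE. In each of these pairs all arrays with aba2 lay above all arrays without it. Of the 9 arrays with aba2, 8 lay above all 12 arrays of the other genotypes, and the exception was aba2/GA20OX1-OE replicate 2 at 8.85, below ga20ox1 replicate 2. The share of all tested probe sets with this count was not determined. Arrays that lay higher without overlap in all 3 pairs were found for 2.52% of all tested probe sets.

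CYP71B22 rose in aba2 by 1.84 (SE 0.24, adjusted p = 3.39e-05), a 3.59-fold change with a 95% interval of 2.55 to 5.06. In the ga20ox1 background the rise was 1.68 (SE 0.24, adjusted p = 0.000131), or 3.21-fold. In the GA20OX1-OE background it was 1.46 (SE 0.24, adjusted p = 0.000553), or 2.75-fold. The 3 pairs share no array. Averaged over the 3 backgrounds, CYP71B22 rose 3.17-fold (1.66, SE 0.14, adjusted p = 1.38e-08). It was the 1 called gene among the 15 tested probe sets (6.67%) in each pair. Of all tested probe sets, 5.03% were called and 2.52% rose in aba2, 5.44% were called and 2.88% rose in aba2/ga20ox1, and 4.52% were called and 2.73% rose in aba2/GA20OX1-OE. A rise called in all 3 pairs was found for 160 of 15923 probe sets.

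No difference in the size of the rise between backgrounds was called. The rise in the GA20OX1-OE background minus that in the wild-type background was -0.39, with a 95% interval of -1.09 to 0.31 (limma interaction, adjusted p = 0.966). The same difference for the ga20ox1 background was -0.16 (-0.86 to 0.54, adjusted p = 0.926). The call held under each of 29 alternatives in each pair. Most of these leave the difference itself unchanged, as they drop arrays outside the pair or change only the fit or the filter. The rise was 1.20 to 1.86 in the GA20OX1-OE background, where the spread was largest (SD 0.71 in aba2/GA20OX1-OE and 0.16 in GA20OX1-OE, n = 3 each). The highest rise there was reached without aba2/GA20OX1-OE replicate 2. The highest limma adjusted p there was 0.037, in the fit of the compared groups alone.

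**Figure D1:**
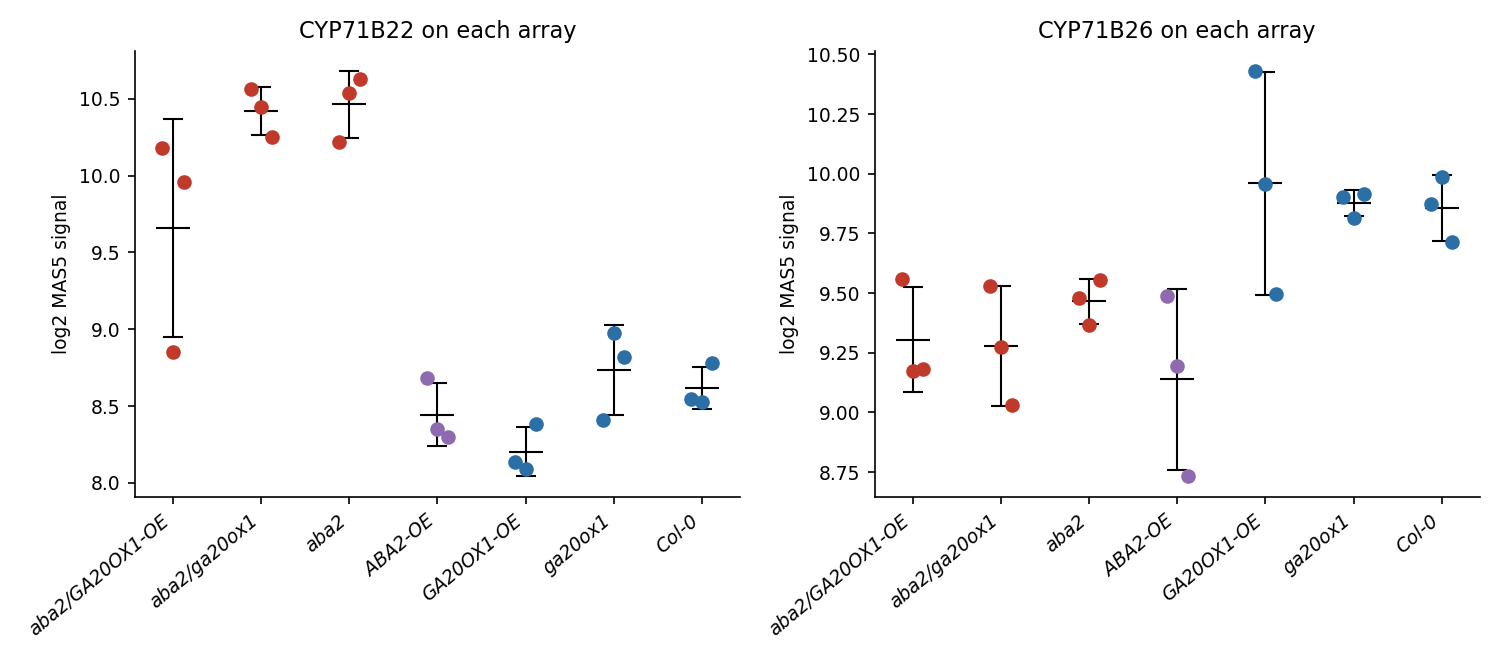
log2 MAS5 signal of CYP71B22 (left) and CYP71B26 (right) on each of the 21 arrays by genotype, with arrays carrying aba2 in red, ABA2-OE in purple and the other genotypes in blue. Points are arrays and bars are the mean ± SD of 3 arrays. CYP71B22 averaged 9.66 to 10.46 in the genotypes with aba2 and 8.20 to 8.74 in those without, whereas CYP71B26 was lowest in ABA2-OE (9.14) and in the 3 genotypes with aba2 (9.28 to 9.47).

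In ABA2-OE CYP71B22 was not called. Its log2 signal was 8.68, 8.35 and 8.30 in ABA2-OE, against 8.55, 8.53 and 8.78 in Col-0, and the arrays overlapped. The difference was -0.17 with a 95% interval of -0.67 to 0.32 (limma adjusted p = 0.746). The differences from Col-0 in the GA20OX1 genotypes that carry ABA2 were not called either, at 0.12 in ga20ox1 (-0.38 to 0.61, limma adjusted p = 0.99) and -0.41 in GA20OX1-OE (-0.91 to 0.08, limma adjusted p = 0.462). All 3 GA20OX1-OE arrays were below all 3 Col-0 arrays in CYP71B22, as for 6.71% of tested probe sets. Within aba2 the arrays of aba2/GA20OX1-OE were likewise below those of aba2, with a difference of -0.80 (SE 0.24, limma adjusted p = 0.152) and no overlap (5.97% of tested probe sets lay so). Of the 21 arrays left out in turn, aba2/GA20OX1-OE replicate 1 was the one without which it was called (-1.06, limma adjusted p = 0.0359). Between aba2/ga20ox1 and aba2 the difference was -0.04 (SE 0.24).

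CYP71B26 (AT3G26290) moved the other way. Its log2 signal was 9.48, 9.37 and 9.55 in aba2, against 9.87, 9.99 and 9.71 in Col-0. In the ga20ox1 background it was 9.53, 9.27 and 9.03 in aba2/ga20ox1, against 9.90, 9.81 and 9.91 in ga20ox1. In the GA20OX1-OE background it was 9.56, 9.17 and 9.18 in aba2/GA20OX1-OE, against 10.43, 9.96 and 9.50 in GA20OX1-OE. The groups overlapped only in the GA20OX1-OE background, through GA20OX1-OE replicate 3. Arrays lay lower without overlap in both other pairs for 3.50% of all tested probe sets. Of the 12 arrays without aba2, 8 lay above all 9 arrays with aba2. These 8 were among the 9 arrays of GA20OX1-OE, ga20ox1 and Col-0, and none was an ABA2-OE array. The share of all tested probe sets with such a count was not determined. The averaged effect of aba2 was a fall of 1.46-fold (-0.55, SE 0.12, 95% interval -0.79 to -0.31, adjusted p = 0.00189).

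In none of the single backgrounds did the fall of CYP71B26 reach the threshold in the fit without a block for the replicate number. Calls with the block are given in the last section. The differences were -0.39 in the wild-type background (SE 0.20, adjusted p = 0.366), -0.60 in the ga20ox1 background (SE 0.20, adjusted p = 0.0947) and -0.66 in the GA20OX1-OE background (SE 0.20, adjusted p = 0.0696). The last was called without GA20OX1-OE replicate 3 (-0.89, adjusted p = 0.0155) and without ABA2-OE replicate 3, which leaves the difference itself untouched (adjusted p = 0.0476). The averaged fall was called under all 29 alternatives, at -0.63 to -0.47 with adjusted p from 0.000211 to 0.0091.

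CYP71B26 was also low where ABA2 was overexpressed. Its log2 signal was 9.49, 9.20 and 8.73 in ABA2-OE, against 9.87, 9.99 and 9.71 in Col-0, without overlap. The difference of -0.72 (SE 0.20) was not called (limma adjusted p = 0.0997). Non-overlap in the lower direction was found for 12.3% of tested probe sets in this comparison. The aba2 pair of the wild-type background and the ABA2-OE comparison share the Col-0 arrays. In ga20ox1 (0.02) and GA20OX1-OE (0.10) the difference of CYP71B26 from Col-0 was small beside its SE of 0.20.

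Averaged over the backgrounds, 2 of the 15 tested probe sets were called, CYP71B22 up and CYP71B26 down, which is 13.3% against 16.0% of all tested probe sets, 8.79% higher and 7.18% lower. Among CYP71B it was 2 of 11 (18.2%). These shares lie near the background. The 11 tested CYP71B genes had 5 positive and 6 negative averaged differences with a median of -0.10, against a median of 0.00 over all tested probe sets. Between the 3 pairs without shared arrays, 7 of the 15 tested probe sets kept one sign throughout (46.7%), as did 44.7% of all tested probe sets.

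**Figure D2:**
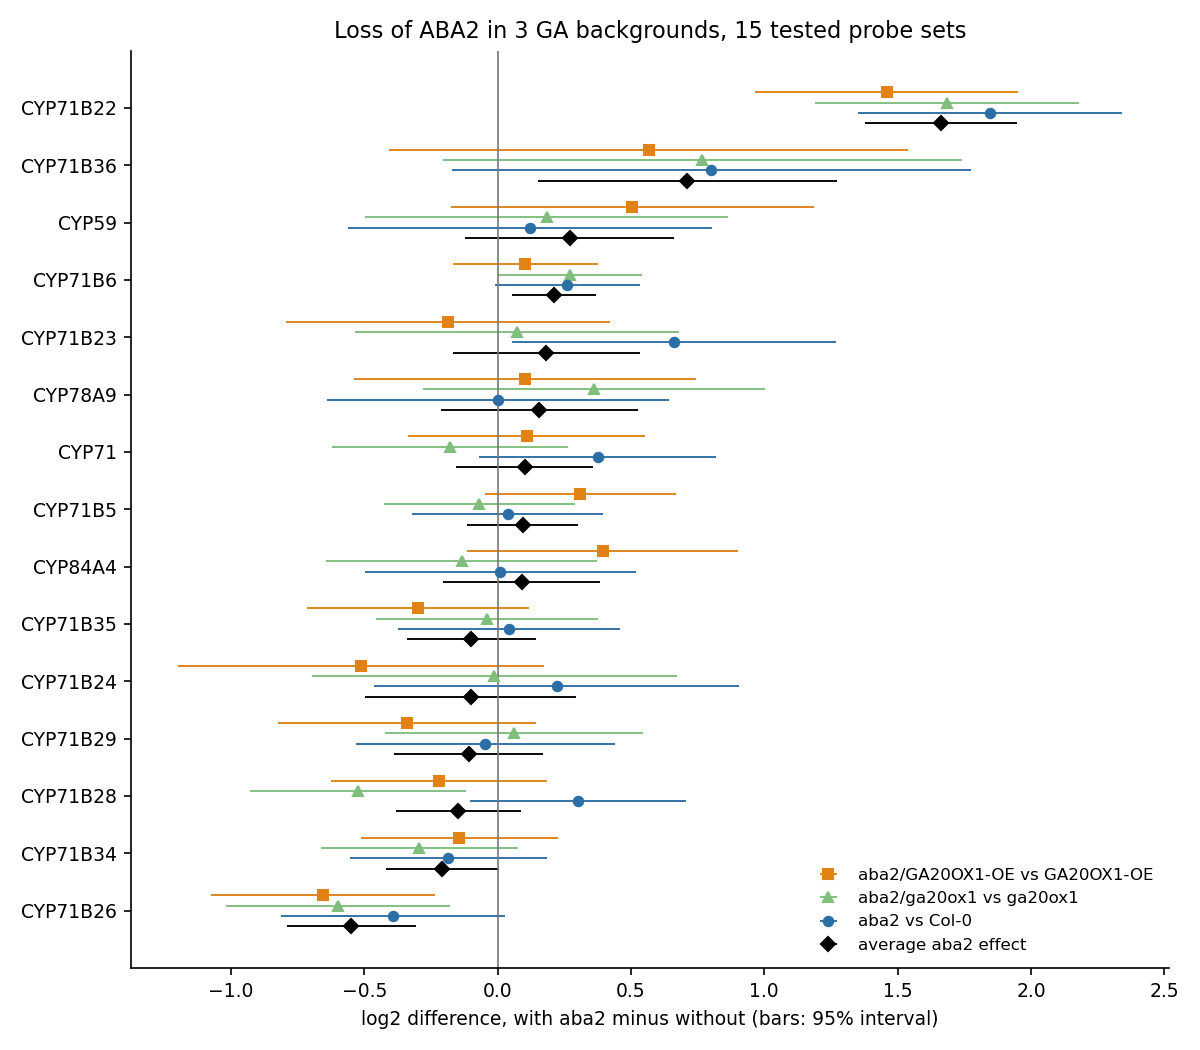
log2 differences (x axis) of the 15 tested probe sets (y axis) between genotypes with and without aba2, in the GA20OX1-OE, ga20ox1 and wild-type backgrounds and averaged over them, with 95% intervals from limma as bars. CYP71B22 stands between 1.46 and 1.84 in the single backgrounds and CYP71B26 between -0.66 and -0.39, while most other intervals include 0.

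After these, the smallest adjusted p of the averaged difference belonged to CYP71B6 and CYP71B36, neither of them called. CYP71B36 had 5.99, 6.62 and 6.38 in aba2 against 5.32, 5.68 and 5.58 in Col-0, and 6.52, 6.37 and 7.11 in aba2/ga20ox1 against 5.48, 5.95 and 6.27 in ga20ox1. Both pairs showed no overlap, and 4.44% of all tested probe sets lay higher without overlap in both. In the GA20OX1-OE background it had 5.07, 5.22 and 6.32 in aba2/GA20OX1-OE against 4.88, 4.94 and 5.10 in GA20OX1-OE, with overlap. Its averaged difference was 0.71 (SE 0.27, adjusted p = 0.0798). With a pseudocount of 20.1 added to the signals the averaged difference was 0.53 and was called (adjusted p = 0.033). It was also called without ABA2-OE replicate 2 (adjusted p = 0.0135) and in a fit of the compared groups alone (adjusted p = 0.0162), both of which leave the difference itself at 0.71. The GA20OX1-OE and ABA2-OE means (4.97 and 4.85) lay under the low-signal bound, so no fold is given.

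CYP71B6 takes part in the breakdown of indole-3-acetonitrile to indole carboxylic compounds, a branch beside camalexin synthesis. It had the narrowest spread of the 26 probe sets, with a pooled SD within genotypes of 0.13. Its means were 9.65 ± 0.24 in aba2/GA20OX1-OE, 9.86 ± 0.10 in aba2/ga20ox1 and 9.77 ± 0.13 in aba2, against 9.54 ± 0.04 in GA20OX1-OE, 9.59 ± 0.12 in ga20ox1 and 9.51 ± 0.13 in Col-0 (SD, n = 3 each). Of the 9 arrays with aba2, 6 lay above all 12 others, the same count as for CYP71B36. How many of all tested probe sets lay so was not counted. Within pairs the arrays of CYP71B6 overlapped in the wild-type and GA20OX1-OE backgrounds but not in the ga20ox1 background. The share of all tested probe sets without overlap in that single pair was not counted either. The averaged difference of 0.21 (SE 0.08, 95% interval 0.06 to 0.37) missed the threshold (adjusted p = 0.0594). It was called in 5 of the 21 fits that leave out 1 array, at 0.23 to 0.24 with adjusted p of 0.0434 to 0.0499. These were the fits without aba2 replicate 1, aba2/GA20OX1-OE replicate 1, aba2/GA20OX1-OE replicate 2, Col-0 replicate 3 and ga20ox1 replicate 3. ABA2-OE differed from Col-0 by -0.10 (SE 0.13).

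Both called genes lie in the same stretch of chromosome 3. There 18 CYP71B genes, CYP71B16 to CYP71B37, stand in a run of 24 neighbouring genes of the reference gene table, and 11 of the 26 probe sets belong to it. CYP71B22 lies directly between CYP71B21 and CYP71B23, and CYP71B26 follows farther on. Neither neighbour of CYP71B22 was called, and no test compared its rise with theirs. CYP71B21 was under the low-signal bound in every genotype mean, from 0.08 to 2.89. CYP71B23 had 7.43, 8.14 and 7.71 in aba2 against 6.54, 7.46 and 7.29 in Col-0, a difference of 0.66 (SE 0.29) that was not called (adjusted p = 0.255).

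In the other backgrounds the differences of CYP71B23 were 0.07 (ga20ox1) and -0.19 (GA20OX1-OE), each with an SE of 0.29. The interaction for GA20OX1-OE was -0.85 with a 95% interval of -1.71 to 0.01 (adjusted p = 0.938). CYP71B24, with 1 gene between it and CYP71B23, had an averaged difference of -0.10 (SE 0.19). In the GA20OX1-OE background its difference was -0.51, and it was called there without aba2/GA20OX1-OE replicate 3 (-1.03, adjusted p = 0.0445), the array of the highest median signal. CYP71B34 and CYP71B35, adjacent to each other, differed on average by -0.21 (SE 0.10) and -0.10 (SE 0.12). CYP71B36 and CYP71B37 are the last genes of the run. CYP71B37 lay just under the bound at a mean of 4.95 and CYP71B36 just above it at 5.68.

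**Figure D3:**
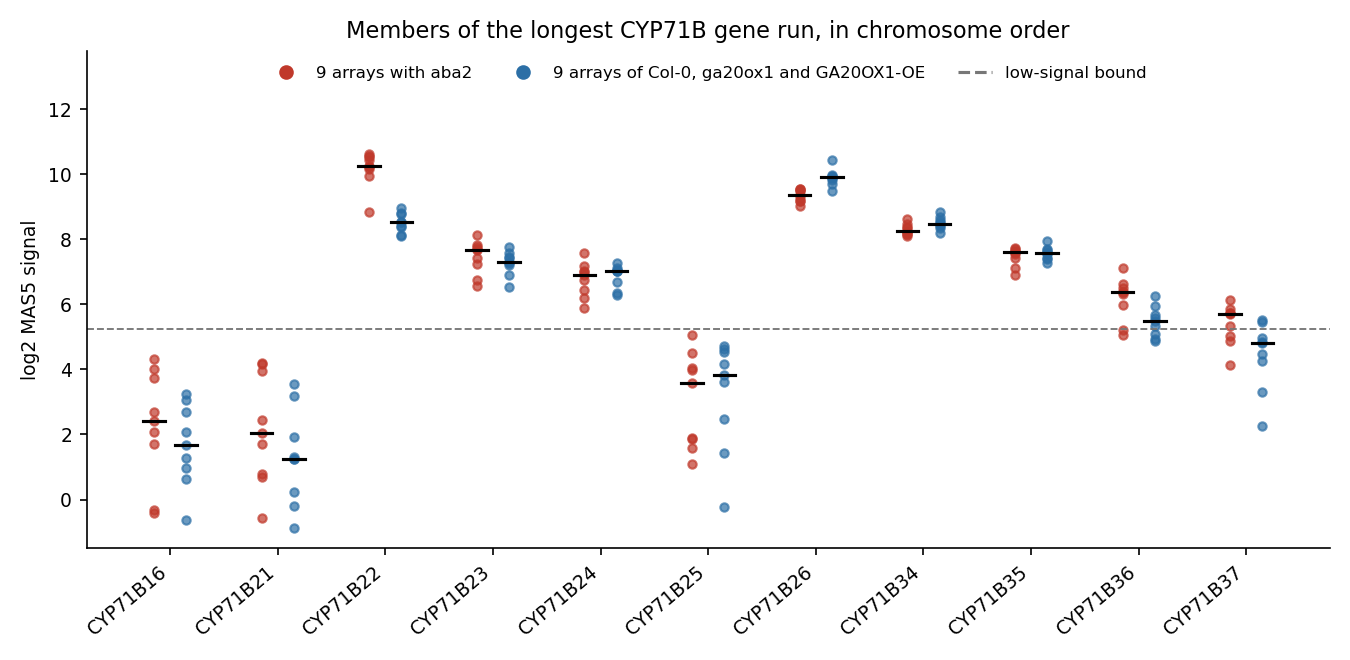
log2 MAS5 signal (y axis) of the 11 probe sets of the CYP71B16 to CYP71B37 gene run in chromosome order (x axis, order only), on the 9 arrays with aba2 (red) and the 9 arrays of Col-0, ga20ox1 and GA20OX1-OE (blue). Lines are medians and the dashed line is the low-signal bound of 5.257. CYP71B22 is higher on the arrays with aba2, CYP71B26 is lower, and CYP71B16, CYP71B21 and CYP71B25 scatter under the bound.

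The shorter runs held no called gene. CYP71B28 and CYP71B29 are adjacent. CYP71B28 had 8.44, 8.57 and 7.85 in aba2/ga20ox1, against 8.47, 8.94 and 9.01 in ga20ox1 and 8.87, 8.67 and 8.92 in aba2. It was thus below all aba2 arrays in the double mutant (-0.53, SE 0.20, adjusted p = 0.753; 7.97% of tested probe sets lay so) but overlapped with ga20ox1. The difference from ga20ox1 was -0.52 (SE 0.20, adjusted p = 0.132), and it was called without ga20ox1 replicate 1 (-0.69, adjusted p = 0.0486). Its interaction of aba2 with ga20ox1 was -0.83 (SE 0.28), the most negative of the 15, and was not called (adjusted p = 0.636). CYP71B29 differed by -0.11 on average with aba2 (SE 0.13). CYP71B5, of a run with the dim CYP71B30P and CYP71B31, differed by 0.09 (SE 0.10).

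P450 genes of other subfamilies had 2 tested probe sets. CYP84A4 acts in the synthesis of arabidopyrones from a lignin precursor. Its log2 signal was 6.84, 6.66 and 7.37 in ABA2-OE, against 6.50, 6.44 and 6.38 in Col-0, without overlap (8.29% of tested probe sets lay so), but the difference of 0.52 (SE 0.24) was not called (adjusted p = 0.278). Its averaged aba2 difference was 0.09 (SE 0.14). CYP78A9 belongs to a subfamily of growth regulators, and its overexpression is known for enlarged fruits. It averaged 6.80 ± 0.11 in aba2/GA20OX1-OE, 6.68 ± 0.29 in aba2/ga20ox1 and 6.40 ± 0.32 in aba2, against 6.70 ± 0.45 in GA20OX1-OE, 6.32 ± 0.52 in ga20ox1 and 6.39 ± 0.60 in Col-0 (SD, n = 3 each). The averaged difference was 0.16 with a 95% interval that included 0 (SE 0.18, adjusted p = 0.632).

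The 2 cyclophilins were not called in any of the 11 comparisons. CYP71 is a cyclophilin with WD40 repeats that acts on chromatin, and CYP59 is one with an RNA recognition motif. Their averaged aba2 differences were 0.10 (SE 0.12) and 0.27 (SE 0.19). CYP71 was higher in all 3 GA20OX1-OE arrays (8.41, 8.47 and 8.47) than in Col-0 (7.90, 8.02 and 8.34), a difference of 0.36 (SE 0.21, adjusted p = 0.472). Higher arrays without overlap made up 11.7% of all tested probe sets in that comparison.

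Comparisons other than loss of ABA2 called none of the 15 tested probe sets with limma. The background was also low, at 0.226% in ABA2-OE, 0.0126% in ga20ox1 and 0.0188% in GA20OX1-OE, each against Col-0. It was 0.00628% in aba2/ga20ox1 and 0.760% in aba2/GA20OX1-OE, each against aba2. An unadjusted p under 0.05 was found for 3, 0, 2, 1 and 3 of the 15 in the same order, and for 17.2%, 6.10%, 12.6%, 6.49% and 9.97% of all tested probe sets. The interaction with ga20ox1 called 0 of all tested probe sets, and 1 of the 15 had an unadjusted p under 0.05, as did 7.26% of all tested probe sets. That with GA20OX1-OE called 6 of all tested probe sets (0.0377%) and none of the 15, none of which had an unadjusted p under 0.05, against 5.32% of all tested probe sets.

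In ABA2-OE 10 of 11 tested CYP71B genes had a negative difference from Col-0, with a median of -0.17, while 53.6% of all tested probe sets were negative (median -0.03). After quantile normalization it was 8 of 11 with a median of -0.12, while 49.0% of all tested probe sets were negative. CYP71B5 (0.12) was the exception, and beside CYP71B26 the lowest were CYP71B36 (-0.68, SE 0.47) and CYP71B29 (-0.50, SE 0.23). In aba2/GA20OX1-OE 10 of 11 were negative against aba2, with a median of -0.16, while 43.3% of all tested probe sets were negative. Quantile normalization likewise gave 10 (median -0.23), while 52.8% of all tested probe sets were negative. In the values as deposited CYP71B22 (-0.80), CYP71B36 (-0.79) and CYP71B23 (-0.76) were lowest. CYP78A9 (0.41) and CYP84A4 (0.35) were positive there. None of these single differences was called.

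In the GA20OX1 genotypes with ABA2 no CYP71B gene was called. In ga20ox1 the 11 genes had a median of 0.10 with 9 positive differences, against a median of 0.03 and 55.2% positive over all tested probe sets. After quantile normalization it was again 9 positive, with a median of 0.08, while 49.9% of all tested probe sets were negative. The largest were those of CYP71B24 (0.44, SE 0.33) and CYP71B23 (0.44, SE 0.29). In GA20OX1-OE the median was 0.08 with 7 positive, against 0.09 and 61.6% positive over all tested probe sets. With quantile normalization it was -0.04 with 4 positive, while 50.5% of all tested probe sets were negative. CYP71B28 had 9.26, 8.87 and 8.81 in GA20OX1-OE, against 8.40, 8.68 and 8.46 in Col-0, without overlap (0.46, SE 0.20, adjusted p = 0.347). Non-overlap in the higher direction was found for 11.7% of tested probe sets in this comparison. CYP71B5 had 7.50, 8.06 and 7.98 in GA20OX1-OE, against 8.38, 8.30 and 8.03 in Col-0 (-0.39, SE 0.17, adjusted p = 0.358).

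**Figure D4:**
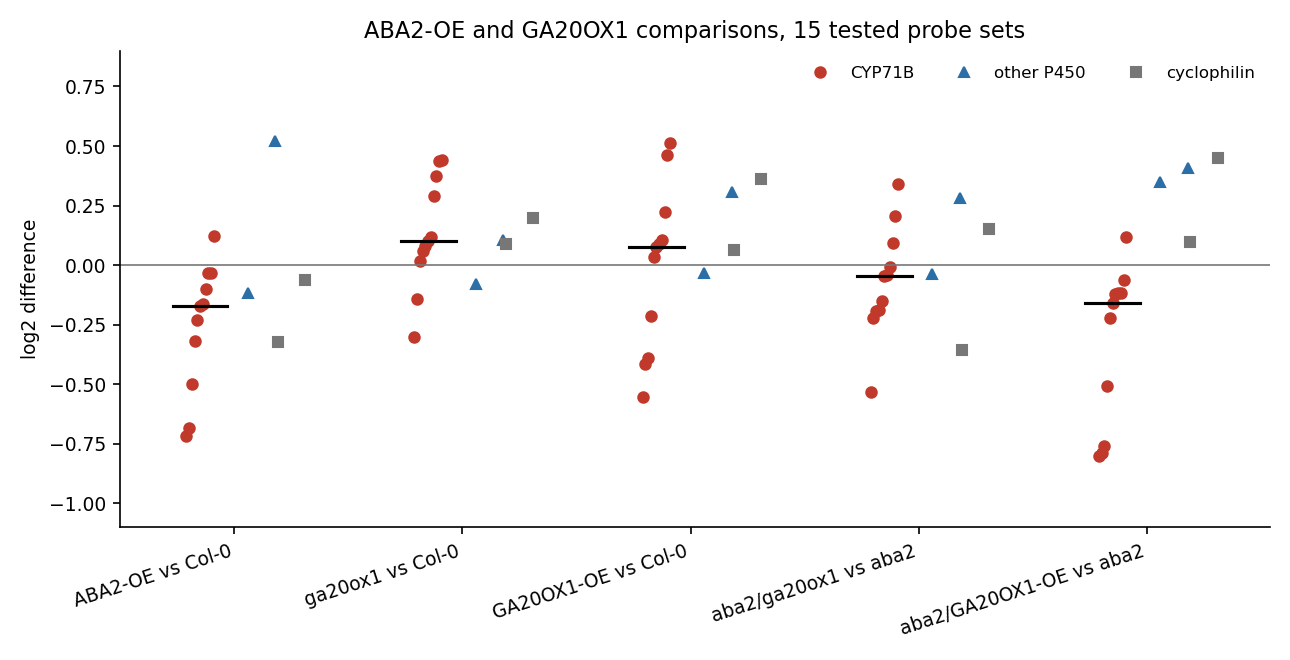
log2 differences (y axis) of the 15 tested probe sets in 5 comparisons (x axis) of ABA2-OE or GA20OX1 genotypes, with CYP71B in red, CYP78A9 and CYP84A4 in blue and the cyclophilins in grey. Black lines are CYP71B medians, which lie at -0.17 in ABA2-OE and -0.16 in aba2/GA20OX1-OE and between -0.05 and 0.10 in the other comparisons.

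The other 11 probe sets had mean log2 signals of 0.84 to 4.95, under the bound, and were not tested in the main fit. They were CYP71B16, CYP71B21, CYP71B25, CYP71B27, CYP71B30P, CYP71B31, CYP71B37, CYP71B38, CYP51G2, CYP718 and CYP79A2. CYP71B27 and CYP51G2, a relative of the sterol demethylase gene CYP51G1, are transcribed pseudogenes in the reference table. CYP79A2 makes phenylacetaldoxime from phenylalanine. Its log2 signals ran from -0.13 to 4.47 over the 21 arrays and both extremes came from GA20OX1-OE.

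Arrays of a genotype disagreed much more for these 11 than for the tested probe sets. Their pooled SD within genotypes had a median of 1.44, against 0.27 for the 15 tested. With the filter removed, none of the 11 was called in any of the 11 comparisons. Over all tests of these 11 probe sets in the 11 comparisons, 5 had an unadjusted limma p under 0.05. The share over all probe sets in that fit was not counted. The lowest adjusted p was that of CYP71B37 for the averaged aba2 difference (0.96, adjusted p = 0.107). CYP51G2 differed in opposite directions, by -1.68 in the ga20ox1 background and 1.58 in the GA20OX1-OE background (adjusted p = 0.228 and 0.322).

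**Figure D5:**
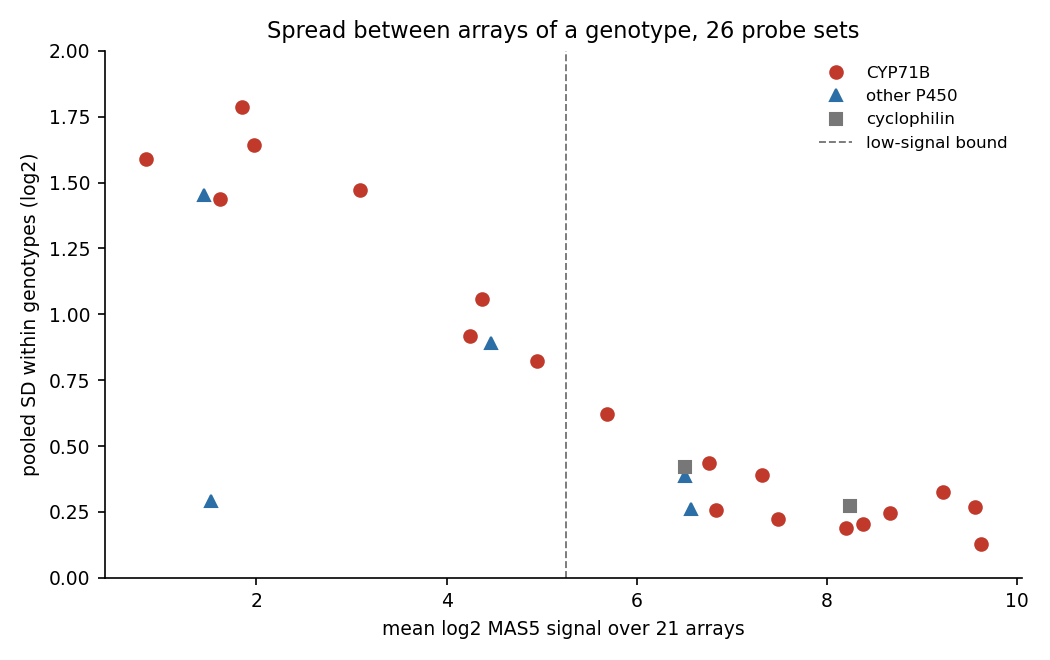
Pooled SD of log2 signals within genotypes (y axis) against the mean log2 MAS5 signal over 21 arrays (x axis) for the 26 probe sets, with CYP71B in red, other P450 genes in blue and cyclophilins in grey. The 15 probe sets right of the dashed low-signal bound have SDs of 0.13 to 0.62, and the 11 left of it reach 1.79.

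Markers of other organs were read beside the aba2 effect. Of 27 flower, anther and pollen markers 6 were measured, and their summed signal was 1220 to 1961 in aba2/GA20OX1-OE, 310 to 546 in aba2/ga20ox1 and 282 to 997 in aba2. It was 415 to 473 in ABA2-OE, 402 to 640 in GA20OX1-OE, 273 to 400 in ga20ox1 and 388 to 457 in Col-0. The anther gene ATA27 rose in the aba2 average by 4.59 (adjusted p = 6.73e-06). Its mean over all arrays was 5.88, and it passed the low-signal filter only through the genotypes with aba2, where it was high. The Col-0 and ga20ox1 means lay under the bound, so neither the size nor the p of this rise can be relied on. The actin gene ACT11 fell in the aba2 average by 0.55 (adjusted p = 0.00109). ACT11 differed by -0.86 in the wild-type background and -0.95 in the ga20ox1 background. In the GA20OX1-OE background it did not fall (0.16, limma adjusted p = 0.785). INO, the other tested marker of this list, was not called in the aba2 average (-0.18, limma adjusted p = 0.741). SPL, AMS and ACT12 lay under the low-signal bound. Of 7 root markers 3 were measured, with summed signals of 317 to 727 in aba2/GA20OX1-OE, 973 to 1227 in aba2/ga20ox1 and 823 to 991 in aba2, against 613 to 756 in ABA2-OE, 1103 to 1702 in GA20OX1-OE, 1607 to 1826 in ga20ox1 and 860 to 1017 in Col-0. The root gene PYK10, a beta-glucosidase, fell by 0.81 in the aba2 average (adjusted p = 0.000346) and by 1.62 in the GA20OX1-OE background (adjusted p = 0.000347). EXPA18, the other tested root marker, had a positive averaged difference of 0.42 and was not called (limma adjusted p = 0.481). EXPA7 lay under the low-signal bound. The part of other organs in the P450 differences was not tested. In whole aerial tissue, a change in the number of cells that express a gene and a change of RNA per cell cannot be told apart.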

How the data were processed

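The deposited values are MAS5 signals, an intensity on a linear scale, with MAS5 named in the submitters' processing notes. Neither its version nor its settings are stated in the labels. The mean of each array, leaving out 2% of probe sets at each end, was 500, so the values had been scaled. No columns were identical, and the number of arrays limits the precision. Values were logged to base 2 without further normalization, 64 control probe sets were left out, and the 30% of the other 22746 with the lowest mean were left out, which kept 15923. One fit of 7 genotype means over 21 arrays was made with limma 3.58.1 in R 4.3.3 (lmFit, eBayes with an intensity trend), and Benjamini-Hochberg adjusted p-values are two-sided and over all tested probe sets. It was checked on simulated data. All adjusted p-values in the text come from limma. The 11 comparisons were loss of ABA2 in 3 backgrounds and their average, ABA2-OE, ga20ox1 and GA20OX1-OE against Col-0, both combinations against aba2, and 2 interactions.

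Genes come from the supplied array annotation (13513 probe sets with 1 symbol, 503 with several, 8730 not listed), matched by gene ID to the reference table. All 26 symbols were unchanged there, and 2 probe sets that share a CYP symbol with another gene were left out. Neighbouring genes come from the order in assembly TAIR10.1. The members and lists were chosen with earlier results of these data known. Genes named by rule were members called in any comparison, the tested CYP71B genes with the highest and lowest mean (CYP71B6 and CYP71B36), and members of the pathway lists. Other members were named with their values known.

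Alternatives tried were eBayes without the trend, a block for the replicate number, fits restricted to the groups compared, no filter, a filter leaving out 50%, 20.1 added to each signal as a pseudocount, quantile normalization, and each array left out in turn. Dropping aba2/GA20OX1-OE replicate 3 together with replicate 2 of GA20OX1-OE was chosen after seeing the data. Figures used Python 3.11.15 with matplotlib 3.10.9.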

Additional observations from a re-analysis of the deposited data

How the results depend on the processing

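Counts of called probe sets, 1 in each single aba2 background, 2 on average and 0 elsewhere, stayed within 1.5 times in 84 of 88 comparisons with alternatives other than leaving out 1 array. The 4 exceptions came with the replicate block. With it 2 probe sets were called in the ga20ox1 background (CYP71B22 and CYP71B26, the second at adjusted p = 0.0279), 2 in the GA20OX1-OE background (the same pair, 0.0167), 4 on average (CYP71B6 at 0.0328 and CYP71B36 at 0.0499 added) and 1 in ABA2-OE against Col-0 (CYP71B26, adjusted p = 0.04). The labels give replicate numbers without a meaning, and deviations of same-numbered arrays correlated above 0.1 in 31 of 63 pairs of arrays (-0.25 to 0.49), not in all, so the block was kept as an alternative. The median was 0.10 for the same number and -0.04 for other numbers, and 16 of 21 arrays correlated best with their own number, a hint from the data, not the design, that a number may be shared. Leaving out each array in turn gave counts of 1 to 2 in the ga20ox1 background, 1 to 2 in the GA20OX1-OE background, 2 to 3 on average, 0 to 1 in aba2/GA20OX1-OE against aba2 and the same count as with all arrays in the other 7 comparisons. The calls of CYP71B22 in the single backgrounds and on average, and of CYP71B26 on average, held under all 29 alternatives run. In the single backgrounds most of these leave the difference itself unchanged. Signals near the low-signal bound limit what can be said of CYP71B36 and the 11 untested probe sets.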
